A study of Mus musculus with 3 samples.

Results

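Small RNA sequencing of the postnatal mouse heart was searched for 6 mature microRNAs (miRNAs) known from white blood cells, namely miR-142a-5p, miR-142a-3p, miR-150-5p, miR-155-5p, miR-223-3p and miR-146a-5p. They were taken by their miRBase accession numbers, MIMAT0000154, MIMAT0000155, MIMAT0000160, MIMAT0000165, MIMAT0000665 and MIMAT0000158, from a table of 1914 accessions, by a rule that used no measured value. Earlier results of these data were, however, known when the members were chosen. The libraries came from wild type C57BL/6 mouse hearts taken on day 1 (P1), day 7 (P7) and day 28 (P28) after birth, 1 library for each age and with no treatment named in the labels. These ages cover the period when heart muscle cells stop dividing. The number of hearts behind a library is not given in the sources used here, and variation from heart to heart could not be measured. Every interval below is a 95% interval that covers counting error only.

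miRNAs guide Argonaute proteins to messenger RNAs through their seed, the bases 2 to 8 from the 5′ end, and thereby lower the output of those messengers. The hairpin of miR-142 is made throughout the blood lineage and gives mature miRNAs from both arms. miR-150 is abundant in mature lymphocytes, where it restrains the transcription factor Myb, while miR-223 is abundant in neutrophils and their myeloid precursors and in platelets. miR-155 is induced in activated lymphocytes and macrophages. miR-146a is induced by NF-kB and dampens Toll-like receptor signaling by repressing Traf6 and Irak1, and it is also made outside the blood lineage, including in endothelial cells. The labels call the tissue heart, while the text of the study speaks of ventricles. In such bulk tissue, fewer cells of a type and less of a miRNA per cell cannot be told apart. The cells of the heart that supplied the reads of each member were not determined.

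The sequences show what each count stands for and which members could share targets or reads. Of the 6 names, 5 were matched in the RefSeq miRNA table (build GRCm38.p6), and the seed of each is in capitals.
miR-142a-5p: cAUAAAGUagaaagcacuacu
miR-142a-3p: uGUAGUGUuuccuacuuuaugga
miR-155-5p: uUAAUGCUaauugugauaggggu
miR-223-3p: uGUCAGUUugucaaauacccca
miR-146a-5p: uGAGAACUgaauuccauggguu

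These 5 miRNAs were 21 to 23 bases long, and 4 of them began with U, miR-142a-5p being the exception with C. No pair among them shared a seed. In the whole RefSeq table, the seeds of miR-142a-5p, miR-142a-3p, miR-155-5p and miR-223-3p belonged to no other mature miRNA. The seed of miR-146a-5p was shared with 1 other, miR-146b-5p, from chr19:46342790-46342811 on the plus strand.
miR-146b-5p: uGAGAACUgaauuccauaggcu
Counted from the 5′ end of miR-146a-5p, the 2 miRNAs differed by G18A and U21C. A read that ends before the first of these differences fits both, and how the authors assigned such reads is not stated, so counts of miR-146a-5p may hold reads of its relative.

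Both arms of miR-142a come from one hairpin at chr11:87756864-87756927 on the plus strand, shown here with miR-142a-5p and then miR-142a-3p in capitals.
Mir142: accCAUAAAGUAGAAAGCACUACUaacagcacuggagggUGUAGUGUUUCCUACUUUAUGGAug
In the GENCODE M21 annotation, which uses the same build, the hairpin lay in an intron of the long noncoding RNA gene Mir142hg. The hairpin of miR-142b was annotated on the opposite strand over the same stretch. The 20 bases of miR-142b, at chr11:87756906-87756925, lay wholly within the positions of miR-142a-3p and were part of its reverse complement.
miR-142b: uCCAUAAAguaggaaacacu
Another mature accession, MIMAT0031402, had the same counts as miR-142a-3p in all 3 libraries. The table gives no names, and whether this row is miR-142b was not determined. Use of strand in the counting is not stated, so reads of miR-142a-3p and of its antisense partner cannot be told apart. The other 5 members had no accession with identical counts.

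miR-155-5p lay at chr16:84714143-84714165 on the plus strand, in an exon of its host gene Mir155hg. miR-223-3p lay at chrX:96242884-96242905 on the plus strand, in an exon of the noncoding transcript F630028O10Rik. miR-146a-5p lay at chr11:43374435-43374456 on the minus strand, where its own hairpin was the only annotated gene. The 5 miRNAs thus came from 4 separate loci, with only the arms of miR-142a sharing a precursor.

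Library totals were 1944237 counts for P1, 2465680 for P7 and 2842526 for P28. Levels are given as CPM, which is the count of a miRNA divided by the library total and multiplied by 1000000. They were not divided by length, and small RNA libraries capture different sequences with different efficiency, so levels of different miRNAs are set side by side only as read counts. A count of 3 reads, the most that 0 reads would allow, corresponded to 1.54 CPM in the P1 library, 1.22 CPM in the P7 library and 1.06 CPM in the P28 library. All 6 miRNAs were above this level at every age, but several rested on few reads. The cells of the heart were not checked by other marker miRNAs, since no table at hand pairs the accessions with names.

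The leukocyte miRNAs took a small share of the reads of each library and were lowest at P1. Together they took 458 reads of the P1 library, 1061 of the P7 library and 1784 of the P28 library, which is 236 CPM (215 to 258), 430 CPM (405 to 457) and 628 CPM (599 to 657). Their summed level was 1.83-fold higher at P7 than at P1 (1.64 to 2.04) and 1.46-fold higher at P28 than at P7 (1.35 to 1.58). At P28 it was 2.66-fold higher than at P1 (2.40 to 2.96). For each of the 6 members the P1 library had the lowest CPM, as it did for 79 of the 291 accessions (27.1%) that reached a mean of 10 CPM over the libraries. miR-142a-3p and miR-223-3p did not reach that mean, and 4 members did. Of these 4, miR-150-5p and miR-155-5p passed through P7 and P28, since both were below 10 CPM at P1.

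miR-146a-5p, the brake on inflammatory signaling, was the most abundant member at every age. It was at 192 CPM (374 reads, 174 to 213) in the P1 library, 316 CPM (778 reads, 294 to 338) in the P7 library and 479 CPM (1361 reads, 454 to 505) in the P28 library. The intervals of the 3 ages did not overlap. It ranked 122nd among all accessions at P1, 99th at P7 and 75th at P28. It supplied 81.7% of the reads of the 6 miRNAs (77.9 to 84.9) in the P1 library, 73.3% (70.6 to 75.9) in the P7 library and 76.3% (74.3 to 78.2) in the P28 library, so the summed level mostly reports this miRNA. Without it, the other 5 members summed to 43.2 CPM in the P1 library, 115 CPM in the P7 library and 149 CPM in the P28 library. That sum was 2.66-fold higher at P7 than at P1 (2.08 to 3.43) and 1.30-fold higher at P28 than at P7 (1.11 to 1.51).

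miR-142a-5p, from the hairpin that marks the blood lineage, came next. It was at 25.7 CPM (50 reads, 19.5 to 33.9) in the P1 library, 55.6 CPM (137 reads, 47.0 to 65.7) in the P7 library and 53.1 CPM (151 reads, 45.3 to 62.3) in the P28 library. P1 lay below both older ages, whose intervals overlapped. The 3p arm of the same hairpin was at 3.09 CPM (6 reads, 1.41 to 6.73) in the P1 library, 12.2 CPM (30 reads, 8.52 to 17.4) in the P7 library and 9.15 CPM (26 reads, 6.24 to 13.4) in the P28 library. As for the 5p arm, P7 had the highest CPM and the intervals of P7 and P28 overlapped, but here the intervals of P1 and P28 overlapped too.

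The arms can be compared within a library, free of any scaling. The 5p arm held 89.3% of the miR-142a reads (78.5 to 95, of 56 reads) in the P1 library, 82.0% (75.5 to 87.1, of 167) in the P7 library and 85.3% (79.3 to 89.8, of 177) in the P28 library. These intervals overlapped at all ages. The balance of the arms thus showed no shift that could be seen at this depth. In every library the 5p arm had the larger count, with 4.57 to 8.33 reads for each read of the 3p arm.

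miR-150-5p, abundant in mature lymphocytes, had the steepest course. It was at 3.60 CPM (7 reads, 1.74 to 7.43) in the P1 library, 21.1 CPM (52 reads, 16.1 to 27.7) in the P7 library and 46.1 CPM (131 reads, 38.8 to 54.7) in the P28 library. The intervals of the 3 ages were separate. Its rank moved from 371 at P1 to 241 at P7 and 160 at P28, by which age it stood beside miR-142a-5p, with overlapping intervals.

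miR-155-5p, induced in activated lymphocytes and macrophages, also rose in order of age. It was at 7.20 CPM (14 reads, 4.29 to 12.1) in the P1 library, 17.8 CPM (44 reads, 13.3 to 24.0) in the P7 library and 30.3 CPM (86 reads, 24.5 to 37.4) in the P28 library. The intervals were separate, though those of neighboring ages nearly touched.

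miR-223-3p, abundant in neutrophils and platelets, rested on few reads. It was at 3.60 CPM (7 reads, 1.74 to 7.43) in the P1 library, 8.11 CPM (20 reads, 5.25 to 12.5) in the P7 library and 10.2 CPM (29 reads, 7.10 to 14.7) in the P28 library. Here the intervals of all ages overlapped. In the order of levels, miR-146a-5p and miR-142a-5p stood first and second at every age. The other 4 could not be ordered at P1, where all of their intervals overlapped. At P28 the order was miR-150-5p, miR-155-5p, miR-223-3p and miR-142a-3p, and among these 4 only the last pair had overlapping intervals. At P7 the order was miR-150-5p, miR-155-5p, miR-142a-3p and miR-223-3p, and each overlapped with its neighbor.

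**Figure D1:**
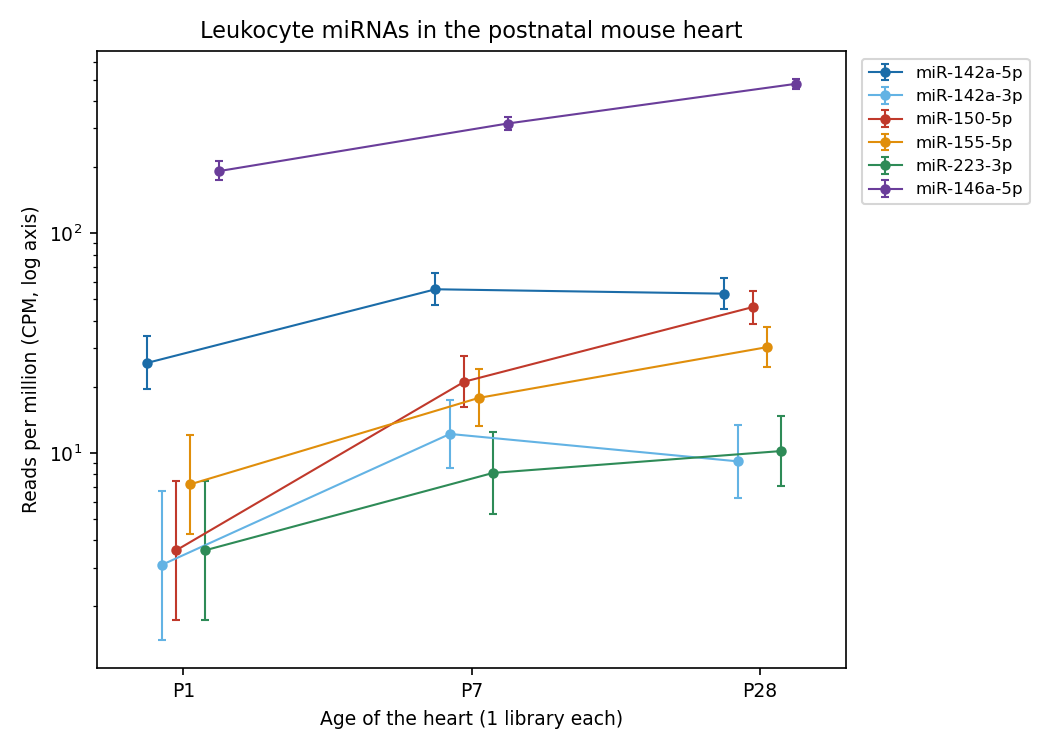
Level of each miRNA (CPM, log axis) in the P1, P7 and P28 libraries, 1 library per age, with bars for 95% Wilson intervals of counting error and lines joining the libraries. miR-146a-5p runs highest from 192 to 479 CPM, and miR-150-5p climbs from 3.60 CPM to the level of miR-142a-5p.

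The first comparison asked how these miRNAs differed between P1 and P7, and 5 of the 6 were at least 2-fold higher at P7. None was at least 2-fold lower. Over all 291 accessions averaging 10 CPM or more, 10.7% were at least 2-fold higher and 11.7% at least 2-fold lower. Of the 4 members in that class, 3 were at least 2-fold higher. Among these, miR-150-5p and miR-155-5p passed the filter only through the older ages, where they were higher, so their part in this count is no separate support. miR-150-5p was 5.86-fold higher (2.65 to 15.3), the only one of the 6 whose interval lay wholly above 2-fold. miR-142a-3p was 3.94-fold higher (1.61 to 11.6), miR-155-5p 2.48-fold (1.33 to 4.90) and miR-142a-5p 2.16-fold (1.55 to 3.05). The interval of miR-223-3p, at 2.25-fold, ran from 0.915 to 6.31 and included no difference, and a pseudocount of 5 reads took it below 2-fold, leaving 4 members and 8.93% of all accessions. miR-146a-5p was 1.64-fold higher (1.45 to 1.86), with an interval wholly below 2-fold. The median log2 ratio of the 6, 2 of which averaged below 10 CPM, was 1.19, against 0.02 over all accessions tested.

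Between P7 and P28 the members parted. miR-150-5p was at least 2-fold higher at P28, at 2.19-fold (1.57 to 3.07), and it was the only one. Among all accessions tested 2.75% were at least 2-fold higher and 41.2% at least 2-fold lower, and none of the 6 was at least 2-fold lower. miR-155-5p was 1.70-fold higher (1.17 to 2.5) and miR-146a-5p 1.52-fold (1.39 to 1.66), both with intervals above no difference. For miR-223-3p (1.26-fold, 0.687 to 2.35), miR-142a-5p (0.956-fold, 0.754 to 1.21) and miR-142a-3p (0.752-fold, 0.427 to 1.32) a difference could not be seen at this depth. The median log2 ratio was 0.46 for the 6 members, 2 of which averaged below 10 CPM, and -0.75 over all accessions tested. The typical entry thus had a smaller share of the P28 library, and TMM scaling, which places it near no change, moved every ratio of this comparison up by 0.59 on the log2 scale. The arms of miR-142a then turned from slightly lower to slightly higher at P28, and 3 of the 6 members were at least 2-fold higher, as were 11.0% of all accessions tested.

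Over the whole span, all 6 were at least 2-fold higher at P28 than at P1, among them all 4 that average 10 CPM or more. Of these 4, miR-150-5p and miR-155-5p reached that average only through P7 and P28. In the background, 13.1% of accessions were at least 2-fold higher and 41.6% at least 2-fold lower. miR-150-5p was 12.8-fold higher (6.04 to 32.5) and miR-155-5p 4.20-fold (2.37 to 8.01). miR-142a-3p followed with 2.96-fold (1.19 to 8.81), miR-223-3p with 2.83-fold (1.21 to 7.66), miR-146a-5p with 2.49-fold (2.22 to 2.80) and miR-142a-5p with 2.07-fold (1.49 to 2.90). Intervals wholly above 2-fold were found for miR-150-5p, miR-155-5p and miR-146a-5p. The other 3 calls rested on few reads at P1 or a ratio near 2, and a pseudocount of 5 reads brought all 3 below 2-fold. That left 3 members and 11.3% of all accessions. Under TMM all 6 were counted, with 24.1% of all accessions. With totals that leave out stem-loop rows, miR-142a-5p fell just short of 2-fold and 5 of the 6 were counted, with 11.3% of all accessions. The median log2 ratio was 1.45 for the members and -0.73 over all accessions tested, and 88.0 to 99.3% of the tested accessions had a lower ratio than a given member. miR-142a-3p and miR-223-3p, with 6 and 7 reads at P1, average below 10 CPM and are not among those accessions. This comparison shares its libraries with the other pair, so it adds no separate evidence.

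**Figure D2:**
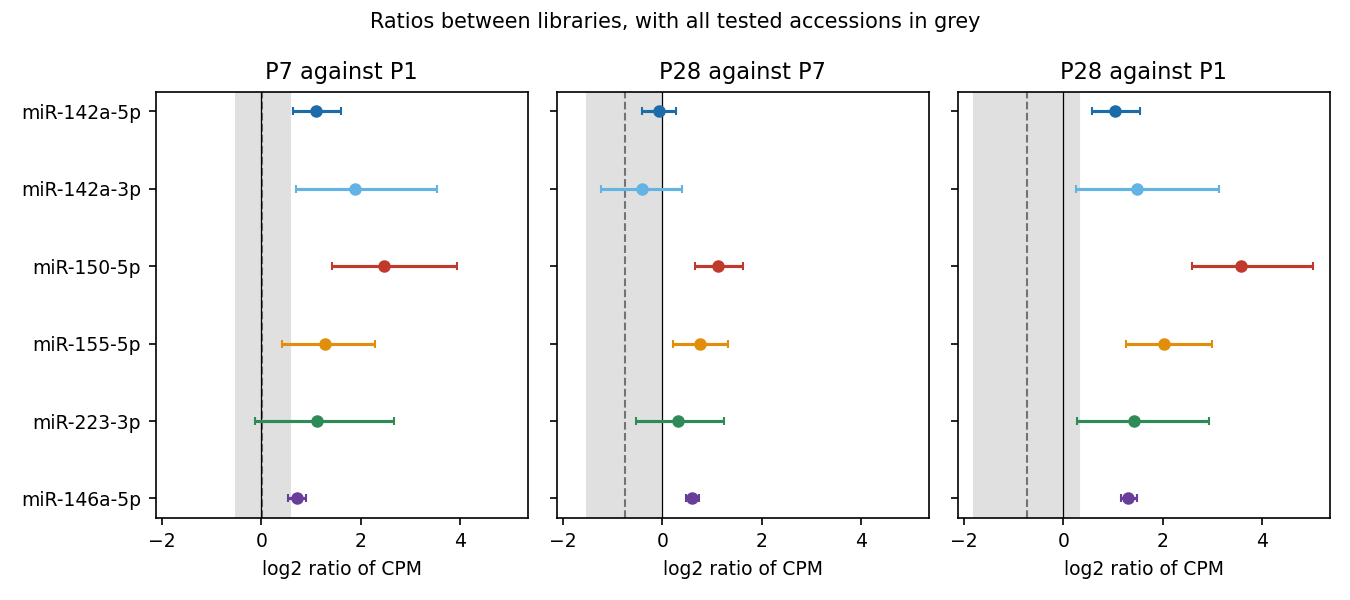
Log2 ratio of CPM for each miRNA in the 3 comparisons, with bars for 95% Clopper-Pearson intervals of counting error. The grey band spans the middle 50% of the 291 accessions tested and the dashed line is their median, which lies at -0.75 for P28 against P7, where miR-150-5p lies at 1.12.

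Changes of one member against another need no scaling, because both are counted in the same libraries. For each of the 15 pairs, the ratio of their reads was compared between 2 ages as an odds ratio with an exact interval. Of the 45 intervals, 15 excluded 1, without adjustment for their number. Pairs of other accessions were not computed, and the 15 pairs share members and libraries, so these counts are a description only. At P7 against P1 the interval excluded 1 for 2 pairs. miR-150-5p gained 3.57-fold on miR-146a-5p (1.59 to 9.40), and miR-142a-5p fell behind miR-150-5p with an odds ratio of 0.370 (0.133 to 0.892).

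At P28 against P7, 7 pairs had such intervals, and 6 of them set an arm of miR-142a below miR-150-5p, miR-155-5p or miR-146a-5p. miR-142a-5p had odds ratios of 0.438 (0.288 to 0.661) against miR-150-5p, 0.565 (0.357 to 0.885) against miR-155-5p and 0.630 (0.488 to 0.814) against miR-146a-5p. miR-142a-3p, counted apart from the 5p arm, had 0.346 (0.177 to 0.668), 0.445 (0.223 to 0.883) and 0.496 (0.279 to 0.874) against the same 3. Whichever scaling is used, both arms of miR-142a thus lost ground to these miRNAs between P7 and P28. The remaining pair was miR-150-5p over miR-146a-5p, at 1.44 (1.02 to 2.05).

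At P28 against P1, 6 intervals excluded 1. miR-150-5p gained on each of the 5 others, most on miR-142a-5p, where the odds ratio of miR-142a-5p to miR-150-5p was 0.162 (0.0599 to 0.376). Its gain was 5.14-fold over miR-146a-5p (2.40 to 13.1), 4.46-fold over miR-223-3p (1.23 to 16.2) and 3.03-fold over miR-155-5p (1.09 to 9.26). The sixth pair was miR-142a-5p against miR-155-5p, at 0.493 (0.237 to 0.970).

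miR-150-5p and miR-223-3p started level in read counts. There was 1.00 read of miR-150-5p for each read of miR-223-3p (0.299 to 3.34) in the P1 library, 2.60 (1.53 to 4.6) in the P7 library and 4.52 (3.0 to 7.01) in the P28 library. On the log2 scale these ratios were 0.0, 1.38 and 2.18. The intervals of P7 and P28 lay above 1, while that of P1, with 7 reads of each, covered ratios on both sides. The change from P1 to P28 is the 4.46-fold gain given above, and at each single step the interval of the odds ratio included 1, at 2.57 (0.675 to 9.84) and 1.73 (0.849 to 3.50).

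As shares of the reads of all 6 miRNAs, miR-150-5p went from 1.53% (0.742 to 3.12) in the P1 library to 4.90% (3.76 to 6.37) in the P7 library and 7.34% (6.22 to 8.65) in the P28 library. miR-142a-5p was at 10.9% (8.38 to 14.1) in the P1 library, 12.9% (11.0 to 15.1) in the P7 library and 8.46% (7.26 to 9.85) in the P28 library, with no overlap between P7 and P28. The share of miR-155-5p ran from 3.06% to 4.82% and that of miR-223-3p from 1.53% to 1.89%, and within each of these miRNAs the intervals of all ages overlapped. miR-142a-3p took 1.31% of the P1 reads, 2.83% of the P7 reads and 1.46% of the P28 reads.

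**Figure D3:**
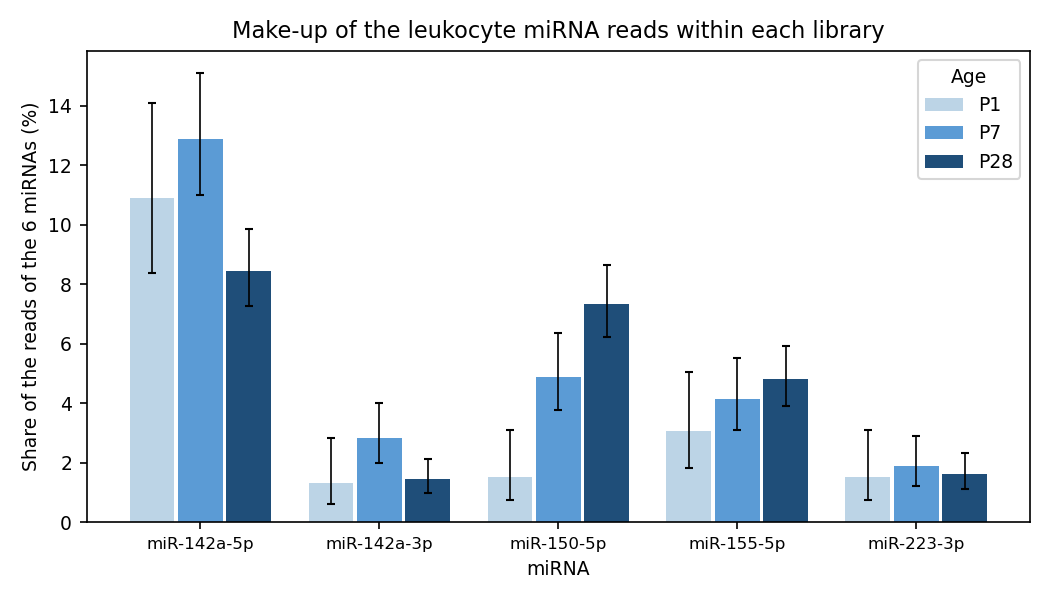
Share (%) of the reads of the 6 leukocyte miRNAs held by each of 5 of them in the P1, P7 and P28 libraries, with 95% Wilson intervals; miR-146a-5p holds the rest, 73.3 to 81.7%. The bars of miR-150-5p rise from 1.53 to 7.34%, and those of miR-142a-5p drop from 12.9% at P7 to 8.46% at P28.

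The course over the ages can be summarized by which steps went up. In CPM, 4 of the 6 members stood higher at each later age and the arms of miR-142a had their highest CPM at P7, with overlapping intervals at P7 and P28, while 44 of the 291 tested accessions (15.1%) stood higher at each later age. Of the 4 members, miR-223-3p had overlapping intervals at all ages, and it averaged below 10 CPM, outside the accessions tested. miR-150-5p and miR-155-5p passed that filter only through P7 and P28, where they were higher. Their part in this count is therefore no separate support. The order of ages depended on the scaling, since under TMM all 6 members and 29.6% of the tested accessions stood higher at each step. The course of each member was also set against the 133 other mature accessions averaging 100 CPM or more. Likeness was measured by the Euclidean distance between the log2 ratios of P7 and of P28 to P1, over 3 libraries, and it is a description only. For 5 members the nearest accession was within 0.05 to 0.47 log2 units. miR-150-5p had none within 0.5, its nearest being MIMAT0000225 at 0.59. That accession stood at 27.3 CPM in the P1 library, then 187 and 233 CPM in those of P7 and P28, with a log2 ratio of 0.31 at P28 against P7 by library totals and 0.9 under TMM. The course of miR-150-5p rests on 7 reads at P1, and the interval of its log2 ratio of P7 to P1 ran from 1.41 to 3.93. This is far wider than its margin to 0.5, so whether its course stands apart could not be told. All candidates were also more abundant than miR-150-5p, which averaged 23.6 CPM. Among the members themselves, the smallest distance was 0.39, for miR-142a-5p and miR-223-3p, beside 0.41 for miR-223-3p and miR-146a-5p. The largest was 2.89, for miR-142a-5p and miR-150-5p, beside 2.87 for miR-150-5p and miR-146a-5p. With 7 reads each of miR-223-3p and miR-150-5p at P1, values this near each other could not be ordered.

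**Figure D4:**
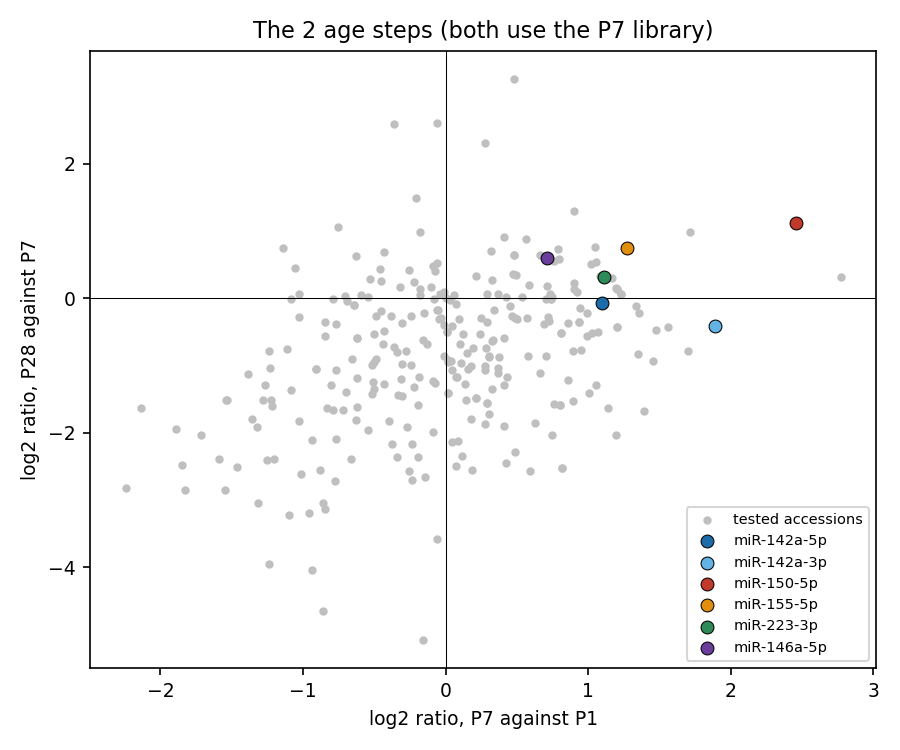
Log2 ratio of P28 against P7 plotted on that of P7 against P1 for the 291 tested accessions (grey) and the 6 leukocyte miRNAs (colored); both axes use the P7 library. All 6 lie to the right of 0, and the arms of miR-142a lie at or below 0 on the vertical axis (-0.07 and -0.41), while miR-150-5p lies at 2.46 and 1.12.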

How the data were processed

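Small RNA libraries were prepared with a NEBNext kit, 1 per age. The submitters' processing notes name bcl2fastq, TopHat and mm10, and the methods of the study name TopHat2 and counting with Bioconductor packages for its sequencing in general. Treatment of strand, of reads with several matches and the miRBase release are not given in the sources used here. The deposited table holds raw read counts without normalization, in 2049 rows. Columns were matched to ages by the age code in their names.

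Rows of one accession were summed (each of the 6 members had 1 row). Log2 ratios used a pseudocount of 0.5 reads and library totals. With 1 library per age no test between ages was possible and no p-value is given. An entry was called at a ratio of at least 2, over accessions averaging 10 CPM or more. Some pairs of these accessions had the same log2 ratios at both age steps. The shares over all accessions may therefore count some reads more than once. Levels and shares have Wilson intervals, ratios have Clopper-Pearson intervals and pairs have exact conditional odds-ratio intervals. No molecular identifiers are stated, so intervals cover counting error only. The procedure was tested on simulated data.

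The members and lists were chosen with earlier results of these data known. The names to be given were the 6 members, the miRNAs sharing their seed, partner arms, fixed marker lists and the 2 accessions most like each member. Names of the members come from the rule that defined them. No table at hand pairs other accessions with names, so partner arms and marker lists (other leukocyte, erythroid, cardiomyocyte, endothelial, smooth muscle and fibroblast miRNAs) were not analysed here, and most similar accessions are given by their distance.

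Alternatives were TMM (edgeR 4.0.16), DESeq2 1.42.0 size factors, totals without the 10 most abundant accessions or without stem-loop rows, a pseudocount of 5 reads, ratios of 1.5 and 4, other filters, and a sum without miR-146a-5p. Python 3.11.15, scipy 1.17.1 and R 4.3.3 were used.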

Additional observations from a re-analysis of the deposited data

How the results depend on the processing

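No paired analysis was possible because the ages had single libraries, and no replicate could be left out. Scaling changed the comparisons with P28. Over the accessions tested, the median log2 ratio moved up by 0.59 (P28 against P7) and 0.63 (P28 against P1) under TMM, by 0.71 and 0.69 under DESeq2 size factors, and by 0.35 and 0.48 with totals lacking the 10 most abundant accessions. The last also moved P7 against P1 by 0.13. In the order TMM, DESeq2 and totals lacking the 10, the members at least 2-fold higher at P28 against P7 then numbered 3, 4 and 2 instead of 1, beside 11.0%, 13.7% and 6.19% of all accessions tested instead of 2.75%. The 4 under DESeq2 included miR-223-3p, which is not among the accessions tested. The log2 ratio of their summed level was 1.13, 1.26 and 0.89 at P28 against P7, and 2.04, 2.1 and 1.89 at P28 against P1. These shifts follow from the scaling factors. miR-142a-5p and miR-142a-3p, near no change at P28 against P7, changed sign under 3 and 2 alternatives. The other 16 member ratios kept their sign under all of these scalings and the larger pseudocount.

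A ratio of 4 left 1 member higher at P7 against P1, 0 at P28 against P7 and 2 at P28 against P1, beside 0.687%, 1.37% and 3.09% of all accessions. Intervals wholly past 2-fold left 1, 0 and 3, beside 4.12%, 1.72% and 8.25%. A ratio of 1.5 gave 3 at P28 against P7, beside 7.90%. A pseudocount of 5 reads gave 3 at P28 against P1, beside 11.3%. At P7 against P1 it gave 4 instead of 5, beside 8.93%, and miR-223-3p was lost. The sum without miR-146a-5p had log2 ratios of 1.4, 0.37 and 1.78 in these comparisons, against 0.87, 0.54 and 1.41 with it. The other counts stayed within 1.5 times and the other sums within their intervals. No setting gave a member at least 2-fold lower. With a mean of 1 CPM, which 2 further members reach, 13.5%, 7.88% and 15.4% of accessions were at least 2-fold higher. Depth limits miR-142a-3p, miR-150-5p and miR-223-3p most, with 6 or 7 reads at P1.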
